A study of Homo sapiens with 6 samples.

Results

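The transcripts of 10 genes that mark hepatic stellate cells and their resting state were followed in LX2, an established human line of hepatic stellate cells in the activated state. The genes were LHX2, HAND2, NGFR, GFAP, RELN, PLIN2, PPARG, CYGB, SPARCL1 and LRAT. They were chosen by symbol, through the Ensembl identifiers of the deposited table, and all 10 were found among its 58243 identifiers. RNA was taken 48 h after transfection with a small interfering RNA that targets AURKA, the gene of the mitotic kinase Aurora A (siAURKA, 3 libraries), or with a control small interfering RNA (siNC, 3 libraries). Per the labels, siAURKA cells are an AURKA knockdown and siNC cells are wild type. All libraries come from this 1 line, grown in DMEM with fetal calf serum on plastic dishes, so resting stellate cells were not measured for comparison. The labels do not say whether replicates were separate cultures, so the spread behind each p-value could be technical.

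Stellate cells store vitamin A as retinyl esters in lipid droplets in the healthy liver. On injury, or on culture plastic, they lose the droplets, turn down the resting programme and make collagen and contractile proteins. Their mesenchymal identity is set by transcription factors such as LHX2 and HAND2, and they also carry genes better known from neural tissue, such as NGFR, GFAP and RELN. LX2 represents activated cells, so the question here is which part of the resting and identity programme it still expresses, and whether that part differs after siAURKA.

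Column totals ran from 33196829 to 53357402 units in siAURKA and from 23366242 to 41764470 units in siNC. Among low values (1 to 24), multiples of 4 were over-represented, at 30.3% or more in each library where an even spread gives 25%. A fragment may therefore be worth 4 units, and 3 fragments (12 units) served as the floor. That floor lay between 0.217 and 0.373 CPM in siAURKA and between 0.278 and 0.573 CPM in siNC, and it covers counting error only. AURKA itself was at 49.8, 47.0 and 51.1 CPM in siAURKA and at 135.8, 128 and 95.02 CPM in siNC (CPM throughout are scaled by TMM). Libraries with the same number resembled each other, as given with the methods, while siNC replicate 2 had both the smallest total and the highest count-weighted GC content (53.3%, against 49.2% to 52.2% in the other 5 libraries).

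In siNC cells 4 of the 10 markers were clearly present and the other 6 were low. A marker counted as detected with at least 12 units in each siNC library and a mean of at least 1 TPM (units divided by exonic length and scaled to the same sum in each library). By that rule NGFR, LHX2, PLIN2 and HAND2 were detected, and GFAP, RELN, SPARCL1, CYGB, PPARG and LRAT were low. Of all 19788 protein-coding genes in the table, 62.5% were detected by the same rule. How far a low marker fell from its level in resting cells was not measured.

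Of the detected markers, NGFR, the p75-type neurotrophin receptor, had the highest mean level per length. It was at 24.4, 76.4 and 19.5 TPM in siNC replicates 1, 2 and 3, with replicate 2 far above the other two. LHX2, a LIM-homeobox factor whose loss in mouse activates stellate cells, was at 24.8, 34.1 and 32.5 TPM. PLIN2, the perilipin that coats lipid droplets in most cell types, was at 23.6, 35.9 and 17.1 TPM. The ranges of these 3 genes overlap, so their order (means of 40.1 ± 31.5, 30.5 ± 4.98 and 25.5 ± 9.56 TPM, SD, n = 3) does not hold beyond the spread between libraries. HAND2, a basic helix-loop-helix factor of mesenchyme, was at 5.37, 3.31 and 6.81 TPM, below all siNC values of those 3. Its mean was above 46.7% of protein-coding genes, against 73.1% for LHX2 and 78.3% for NGFR.

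Among the low markers, GFAP, the glial filament protein used as a stellate marker in rodents, was at 0.424, 0.555 and 1.67 TPM in siNC. The third library alone lay above 1 TPM, and without siNC replicate 1 or without siNC replicate 2 GFAP would have counted as detected. RELN, which encodes the secreted glycoprotein reelin, was at 0.366, 1.05 and 0.121 TPM, with at least 12 units in all 6 libraries. SPARCL1, a secreted relative of the matrix protein SPARC, was at 0.118, 0.473 and 0.910 TPM. CYGB, a stellate cell globin, was at 0.0349, 0.791 and 0.130 TPM. PPARG, the nuclear receptor of the fat cell programme that is linked to stellate quiescence, was at 0.453, 0 and 0.0845 TPM. LRAT, the enzyme that esterifies retinol for storage, had 1 unit in siNC replicate 2 and 0 in the other 5 libraries, so it stayed under the floor everywhere. The ranges of GFAP, RELN, SPARCL1, CYGB and PPARG overlap one another, and their order does not hold beyond the spread. A value of 0 is read with care, since the table also lists 0 in every library for all 37 mitochondrially encoded genes. GFAP and RELN straddle the limit of 1 TPM, and with a limit of 0.5 TPM both join the detected markers, which makes 6.

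**Figure D1:**
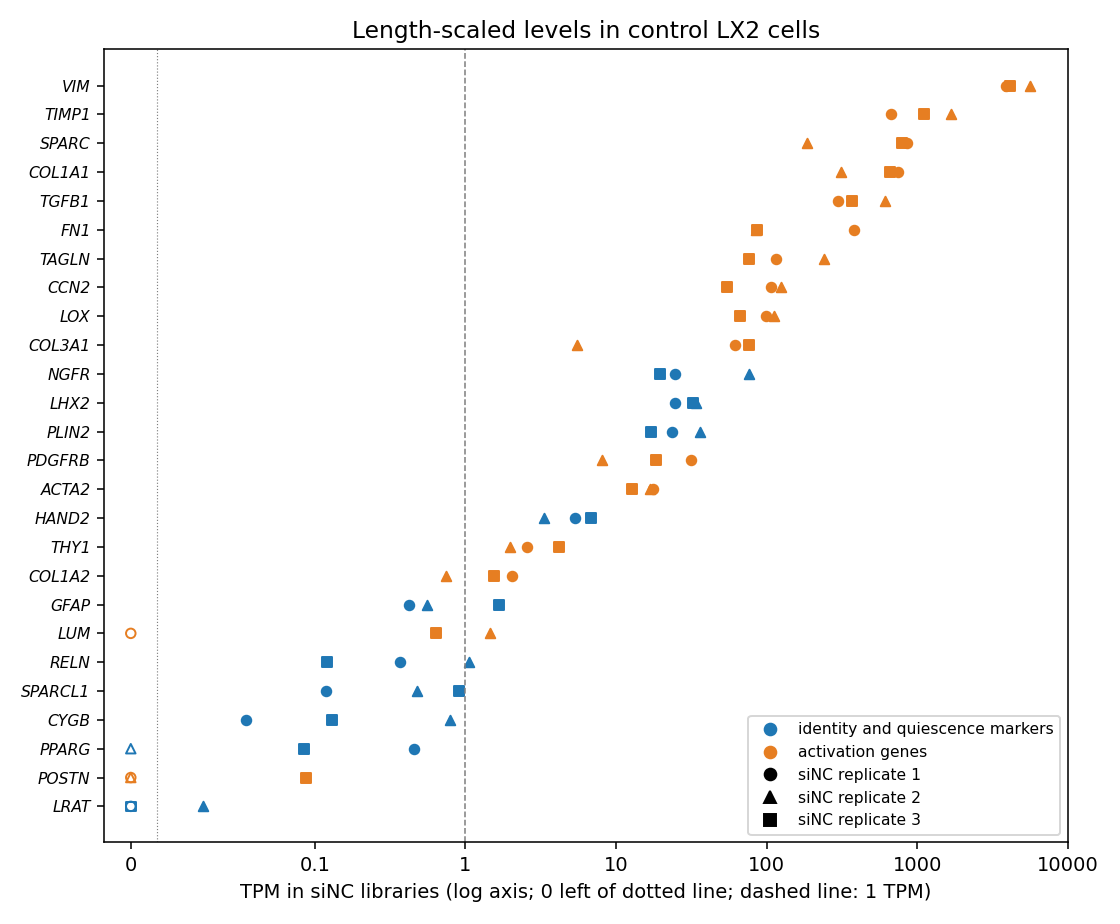
Levels per exonic length (TPM, log axis) of the 10 markers and of 16 activation genes in the 3 siNC libraries, 1 symbol per library, ordered by mean. NGFR, LHX2 and PLIN2 lie among the activation genes, near PDGFRB and ACTA2, HAND2 lies lower, and the other 6 markers have mean levels under 1 TPM (dashed line).

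Genes of the activated state gave the other side of this profile. Of 16 activation genes, 14 were detected in siNC, against 62.5% of all protein-coding genes by the same rule. VIM, the mesenchymal filament protein, was at 4510 ± 927 TPM, TIMP1, an inhibitor of matrix proteases, at 1152 ± 507 TPM, and COL1A1, a chain of type I collagen, at 571 ± 227 TPM (SD, n = 3). COL1A2, the other chain of type I collagen, was far lower, at 1.44 ± 0.66 TPM, close to the limit of 1 TPM. ACTA2, smooth muscle actin, was at 15.7 ± 2.55 TPM, between the levels of PLIN2 and HAND2, and its siNC values (17.7, 16.7 and 12.9 TPM) overlap the range of PLIN2. PDGFRB, the receptor that drives stellate cell growth, was at 19.3 ± 11.6 TPM. POSTN and LUM were the 2 that were not detected. DES, desmin, a classic stellate filament protein in rodents, was at 0.737 TPM on average and was low by the same rule.

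Close relatives of some markers stood at other levels. PLIN3, a second droplet coat protein, was at 165.4 ± 12.7 TPM in siNC, above PLIN2 in all 3 libraries. PPARD was at 107.3 ± 26.8 TPM where PPARG was near 0. SPARC was at 609.8 ± 368.6 TPM where SPARCL1 was low, LHX9 was at 3.15 ± 2.16 TPM, and HAND1 was listed at 0 in every library.

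The DNA upstream of RefSeq gene starts is shown for a pair of detected and a pair of low markers, because CpG-dense promoters are often found at genes active in many tissues. Each line gives the 250 bases before the RefSeq start (GRCh38.p14), read 5′ to 3′ on the gene's strand, with CpG dinucleotides in capitals. LHX2 is chr9:124011518-124011767 on the plus strand and PLIN2 chr9:19127493-19127742 on the minus strand. RELN is chr7:103989659-103989908 on the minus strand and LRAT chr4:154743750-154743999 on the plus strand. The LHX2, PLIN2 and LRAT windows lie inside the gene spans of GENCODE release 29, whose outermost starts are further upstream. Sequence at those other starts was not examined.
LHX2: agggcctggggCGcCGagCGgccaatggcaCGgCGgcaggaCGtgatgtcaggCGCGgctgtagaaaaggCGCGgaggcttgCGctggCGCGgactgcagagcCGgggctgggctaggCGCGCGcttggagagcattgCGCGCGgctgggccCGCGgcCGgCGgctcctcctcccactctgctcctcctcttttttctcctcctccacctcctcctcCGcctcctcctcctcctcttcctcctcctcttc
PLIN2: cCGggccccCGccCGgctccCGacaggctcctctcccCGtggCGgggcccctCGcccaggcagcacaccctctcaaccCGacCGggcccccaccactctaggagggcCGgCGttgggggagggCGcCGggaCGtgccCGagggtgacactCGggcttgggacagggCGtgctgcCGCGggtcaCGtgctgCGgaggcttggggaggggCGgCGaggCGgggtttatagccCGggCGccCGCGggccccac
RELN: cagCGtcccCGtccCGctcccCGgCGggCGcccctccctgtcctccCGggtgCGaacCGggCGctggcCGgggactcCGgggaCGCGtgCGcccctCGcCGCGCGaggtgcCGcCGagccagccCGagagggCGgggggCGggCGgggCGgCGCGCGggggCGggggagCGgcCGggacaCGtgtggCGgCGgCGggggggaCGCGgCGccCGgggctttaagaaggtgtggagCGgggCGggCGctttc
LRAT: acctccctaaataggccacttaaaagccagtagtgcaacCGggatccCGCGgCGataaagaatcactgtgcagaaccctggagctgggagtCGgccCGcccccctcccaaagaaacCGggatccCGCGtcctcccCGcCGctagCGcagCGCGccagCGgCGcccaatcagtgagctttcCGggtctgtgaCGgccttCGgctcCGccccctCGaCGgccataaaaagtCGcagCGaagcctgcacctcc
CpG density did not follow the levels in these 4 windows. The detected LHX2 and PLIN2 had 25 and 28 CpGs, and the low RELN and LRAT had 43 and 24, all above the median of 11 over 35114 such windows. The RELN window had more CpGs than 99.0% of them. HAND2 had 13 CpGs and SPARCL1 had 1, and the 6 windows of PPARG, some of which overlap, had between 0 and 10. Promoter sequences of 7 of the 10 markers were matched by symbol, and NGFR, GFAP and CYGB were not.

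Searched on both strands, the letters CACGTG were present in the PLIN2 and RELN windows (6.35% of all windows). The letters TATAAA were present for PLIN2, for SPARCL1 and in 2 overlapping PPARG windows (10.7%). In the PLIN2 and PPARG windows they were read on the opposite strand. The distance to the start was not considered, so no match is called a TATA box. AGGTCA, the half-site of many nuclear receptors, was present in 3 PPARG windows (12.1%) and TAATTA in the HAND2 window (4.35%). A match describes the sequence only.

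After siAURKA none of the 9 tested markers passed the test for a difference. LRAT did not pass the filter on low values. edgeR's quasi-likelihood test called 0 of the 9 at an adjusted p of 0.05, as it did over all 18775 tested genes (0.0%), and the adjusted p was 0.9999 for each of the 9. Before adjustment 0 of the 9 markers had a p below 0.05, against 237 of all tested genes (1.26%). edgeR with the replicate number as a block, and limma-voom without it, also called 0.0% of genes. DESeq2 called 0 markers (0.0905% of all genes), and with the replicate block it again called 0, against 0.501% of all genes higher and 0.81% lower. In that last fit PPARG, CYGB and SPARCL1 received no adjusted p because of their low counts. AURKA itself, at a log2 fold change of -1.28 without overlap, had an adjusted p of 0.9999 by edgeR and 0.498 with the block. DESeq2 gave AURKA an adjusted p of 0.0314, or 1.4e-06 with the block. edgeR thus missed the targeted gene, and a marker that it did not call is not shown to be unchanged. The siAURKA and siNC values overlapped for all 10 markers. Among all tested genes the groups did not overlap for 3.33% (siAURKA higher) and 2.52% (siAURKA lower).

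**Figure D2:**
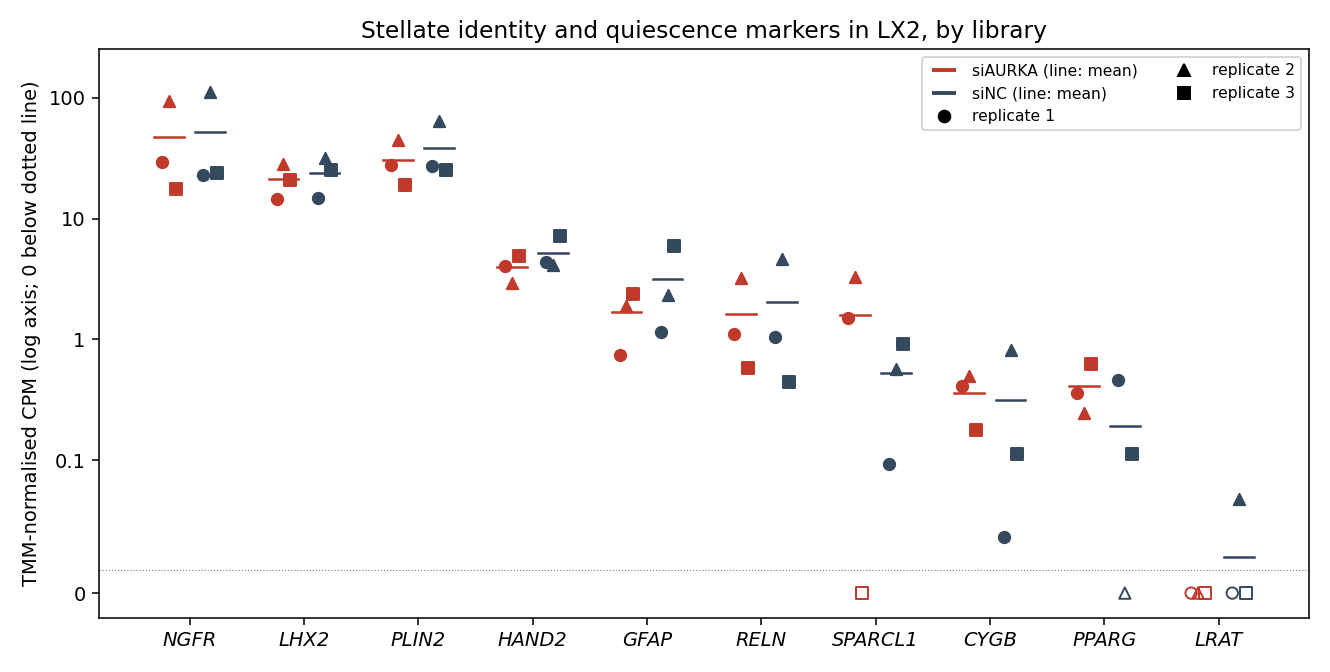
TMM-normalised CPM (log axis, 0 drawn under the dotted line) of each marker in the siAURKA libraries (red, left) and the siNC libraries (dark, right), with replicate numbers as symbols and group means as lines. The groups overlap for every marker, and for NGFR, LHX2, PLIN2 and RELN the replicate 2 libraries (triangles) are the highest of both groups.

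The stellate transcription factors LHX2 and HAND2 did not pass the test, and both had lower values after siAURKA in 3 of 3 same-numbered pairs, as did 17.6% of all tested genes. LHX2 (ENSG00000106689, chromosome 9, 124001670 to 124033301, plus strand, GRCh38) was at 14.6, 28.1 and 20.8 CPM in siAURKA replicates 1, 2 and 3 and at 14.8, 31.5 and 25.2 CPM in siNC. The libraries numbered 1 were lowest and those numbered 2 highest in both groups. Its log2 fold change (siAURKA over siNC) was -0.17 (SE 0.40), with log2 ratios of -0.022, -0.16 and -0.28 in pairs 1, 2 and 3. Leaving out siAURKA replicate 1 or siNC replicate 2 turned it to 0.030 or 0.083. HAND2 (ENSG00000164107, chromosome 4, 173524969 to 173530229, minus strand) was at 4.04, 2.96 and 4.94 CPM in siAURKA and at 4.36, 4.15 and 7.17 CPM in siNC. Its highest value was siNC replicate 3, and the other 5 libraries lay within 2.96 and 4.94 CPM. The log2 fold change was -0.39 (SE 0.39), with pair ratios of -0.11, -0.48 and -0.53, and it was -0.089 without siNC replicate 3.

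HAND2 shares 24.1% of its exonic bases with the antisense gene HAND2-AS1, which starts beside it and runs the other way. HAND2-AS1 was at 1.32, 2.15 and 2.14 CPM in siAURKA and 2.48, 1.29 and 3.22 CPM in siNC. Nothing states that strand was used in counting, so reads from the shared bases cannot be told apart. The same holds for 27.1% of the exonic bases of NGFR, 18.4% of GFAP, 18.7% of CYGB and 3.96% of LHX2.

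Of the neural-type markers, NGFR (ENSG00000064300, chromosome 17, 49495293 to 49515017, plus strand) was at 29.3, 94.0 and 17.6 CPM in siAURKA and 22.9, 110.3 and 23.7 CPM in siNC. Both replicate 2 libraries stood 3-fold or more above every other library, whichever small interfering RNA the cells had received. The log2 fold change was -0.15 (SE 0.81), and the pairs differed in direction, at 0.36, -0.23 and -0.43. Leaving out siNC replicate 2 gave 1.01, and leaving out siAURKA replicate 2 gave -1.15. Each of these fits kept the replicate 2 library of the other group, which was high for NGFR, so the groups were no longer balanced by number. RELN (ENSG00000189056, chromosome 7, 103471784 to 103989516, minus strand) was likewise highest in the replicate 2 library of each group, at 1.12, 3.21 and 0.579 CPM in siAURKA and 1.04, 4.63 and 0.448 CPM in siNC. Its log2 fold change was -0.31 (SE 0.96) with pair ratios of 0.096, -0.52 and 0.33, and it ran from -1.24 without siAURKA replicate 2 to 1.12 without siNC replicate 2.

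GFAP (ENSG00000131095, chromosome 17, 44903161 to 44916937, minus strand) was at 0.740, 1.90 and 2.38 CPM in siAURKA and 1.16, 2.34 and 5.91 CPM in siNC. It was lower after siAURKA in 3 of 3 pairs, at log2 ratios of -0.61, -0.29 and -1.29, and siNC replicate 3 was far above the rest. The log2 fold change of -0.91 (SE 0.70) was the furthest below 0 among the 9 markers, and it was -0.050 without siNC replicate 3. CCDC103 and FAM187A lie on the opposite strand over its shared bases. CCDC103 was at 4.51, 0.965 and 0.756 CPM in siAURKA and 7.23, 4.34 and 5.74 CPM in siNC, above GFAP in siAURKA replicate 1 and in siNC replicates 1 and 2. FAM187A was at 4.203, 7.002 and 8.076 CPM in siAURKA and 0.1391, 8.877 and 5.237 CPM in siNC, above GFAP in all 3 siAURKA libraries and in siNC replicate 2.

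PLIN2 (ENSG00000147872, chromosome 9, 19108375 to 19149290, minus strand) stood for the lipid droplet. It was at 27.7, 44.9 and 18.8 CPM in siAURKA and 27.0, 63.5 and 25.4 CPM in siNC, again with the replicate 2 libraries highest. The log2 fold change was -0.34 (SE 0.49) and the pair ratios were 0.037, -0.50 and -0.43. Without siNC replicate 2 it turned to 0.22.

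PPARG (ENSG00000132170, chromosome 3, 12287368 to 12434356, plus strand) was at 20, 8 and 28 units in siAURKA and at 20, 0 and 4 units in siNC. Only 3 of the 6 libraries reached the floor of 12 units, so no fold is given for pairs 2 and 3, and in pair 1 the log2 ratio was -0.32. The fitted log2 fold change was 1.01 (SE 1.11), and it ran from 0.51 without siNC replicate 2 to 2.65 without siNC replicate 1.

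SPARCL1 (ENSG00000152583, chromosome 4, 87473335 to 87531061, minus strand) was the least even marker, at 84, 105 and 0 units in siAURKA and 4, 12 and 33 units in siNC. Both siAURKA replicates 1 and 2 lay above all siNC libraries, while siAURKA replicate 3 was at 0 and thus at least 3.46-fold below siNC replicate 3 (floor of 12 units per library). The fitted log2 fold change was 1.59 (SE 1.47), 0.52 without siAURKA replicate 2, 2.31 without siNC replicate 3 and 0.034 by limma-voom.

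CYGB (ENSG00000161544, chromosome 17, 76527356 to 76551175, minus strand) was at 23, 16 and 8 units in siAURKA and 1, 17 and 4 units in siNC, with 3 of 6 libraries at the floor or above. Its log2 fold change was 0.28 (SE 1.18). LRAT (ENSG00000121207, chromosome 4, 154626945 to 154753118, plus strand) was at 0 in all 3 siAURKA libraries, so neither group reached the floor.

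**Figure D3:**
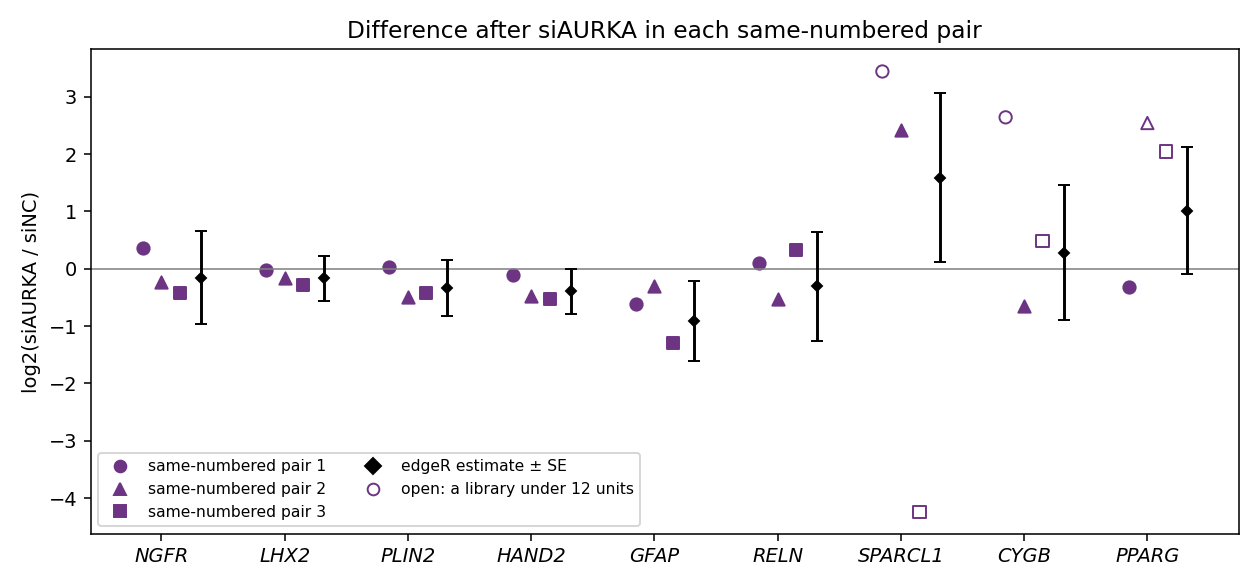
Log2 ratio of siAURKA over siNC in each same-numbered pair (purple, open where a library had under 12 units) and edgeR's log2 fold change with its SE (black) for the 9 tested markers. LHX2, HAND2 and GFAP are below 0 in all 3 pairs, and the spread of SPARCL1, CYGB and PPARG is wider than that of the others.

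LHX2, HAND2 and GFAP were thus the markers lower in 3 of 3 pairs, and none of the 9 was higher in 3 of 3. Among all tested genes 17.6% were lower and 17.9% higher in all 3 pairs. Of the 9 fitted log2 fold changes 6 were below 0, with a median of -0.17, where all tested genes had 9676 below 0 and 9099 above with a median of -0.012. The median of the markers turned to 0.51 without siNC replicate 2, to 0.030 without siAURKA replicate 1 and to 0.089 without siAURKA replicate 3. On log2 CPM, the exact permutation test (two-sided) gave p-values from 0.3 (PPARG) to 1 (RELN) over the 9 markers, where 0.1 is the smallest that 3 against 3 libraries allow.

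Most of the spread of NGFR, RELN, LHX2, PLIN2, GFAP, HAND2 and CYGB ran between replicate numbers, well above the share between groups. For NGFR, RELN and LHX2 the replicate number held 97.2%, 97.6% and 95.3% of the variance of log2 CPM over the 6 libraries, and the contrast of siAURKA with siNC held 0.236%, 0.0173% and 3.23%. PLIN2 had 89.1% between numbers and 6.62% between groups, GFAP 78.4% and 16.3%, and HAND2 69.1% and 24.6%. The median over all tested genes was 74.1% between numbers and 7.07% between groups, so a large share between numbers is common in these libraries. The 3 low-count markers had smaller shares between numbers. PPARG had 41.8% between numbers and 32.8% between groups, CYGB 54.6% and 12.2%, and SPARCL1 29% and 1.73%, with 69.3% in neither. For AURKA the order was the other way, with 2.33% between numbers and 93.7% between groups.

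**Figure D4:**
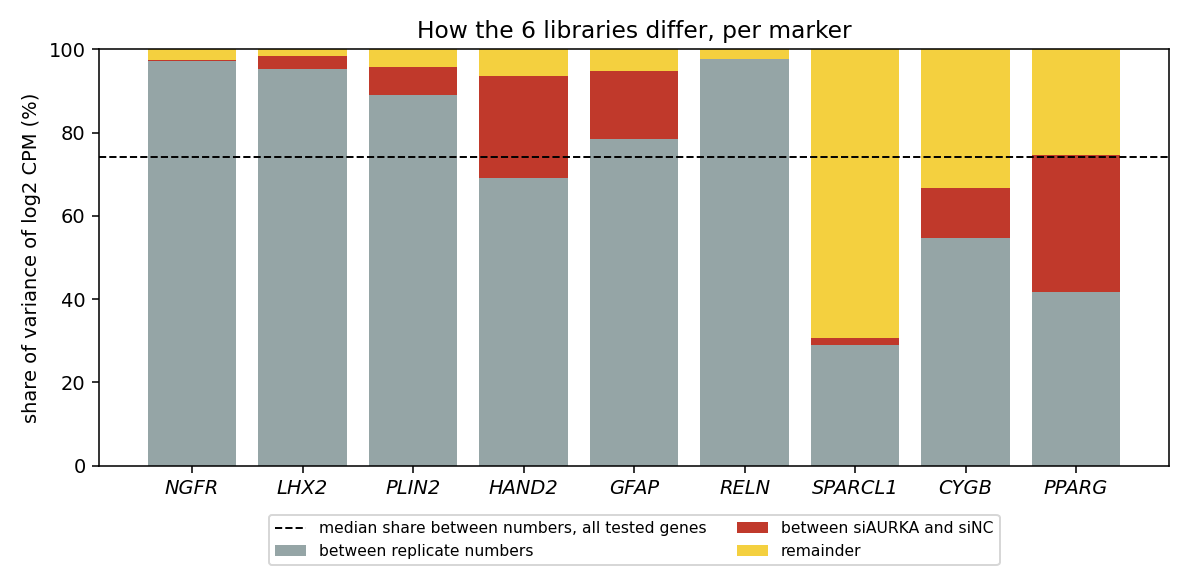
Share of the variance of log2 CPM over the 6 libraries that lies between replicate numbers (grey), between siAURKA and siNC (red) and in the remainder (yellow), for the 9 tested markers. The grey share is above 89% for NGFR, LHX2, PLIN2 and RELN, and the dashed line is its median over all tested genes, 74.1%.

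The replicate 2 libraries, in which NGFR, RELN, PLIN2 and LHX2 were highest, also had the smallest total of their group and count-weighted GC contents of 52.2% in siAURKA and 53.3% in siNC. The GC content of the longest transcript was 62.8% for NGFR and 60.3% for LHX2, above 92.4% and 86.3% of tested genes, but 47.0% for RELN and 48.9% for PLIN2, near the middle. The part of depth and GC content in these levels was not tested. By Pearson's r of log2 CPM over the 6 libraries, among genes of at least 5 CPM, MLLT1 and DOCK6 were most like NGFR (0.994 each), AMPD2 (0.996) and KHSRP (0.991) most like PLIN2, TAX1BP3 (0.998) and DLGAP4 (0.994) most like RELN, and RNH1 (0.998) and H1-10-AS1 (0.997) most like LHX2. For LHX2 938 of 12068 genes had an r above 0.95, and for NGFR 87 did. HAND2 was most like AC025283.2 (0.962) and IKBKB (0.961), GFAP most like SPCS1 (0.992) and HACL1 (0.991), and SPARCL1 most like PTGES3 (0.983) and NOP14-AS1 (0.972). The points share library depth and replicate number, and with so few libraries a high r is common.

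Genes around the markers were counted in siNC by the same rule, under which 62.5% of all protein-coding genes were detected. In the retinoid list 9 of 18 genes were detected in siNC, among them the receptors RARA (51.1 TPM), RARB (15.6 TPM) and RXRA (19.3 TPM) and the retinoic acid carrier CRABP2 (39.0 TPM). The retinol uptake receptor STRA6 was low at 0.973 TPM, and LRAT was under the floor. In the lipid droplet list 15 of 19 were detected, with the lipase PNPLA2 at 177.3 ± 65.6 TPM (SD, n = 3) and its inhibitor G0S2 at 35.0, 305.7 and 86.0 TPM in siNC replicates 1, 2 and 3, while the fat cell perilipin PLIN1 was low at 0.571 TPM. Of 20 further quiescence or fat-programme transcription factors 17 were detected. Of 20 other stellate genes 10 were, with CXCL12 at 402.1 TPM and ECM1 at 186.2 TPM but HGF at 0 in siNC. Of 20 neurotrophin, reelin and other neural-type genes 8 were detected. Those include SORT1 (82.7, 24.7 and 14.5 TPM), a co-receptor of NGFR, and the reelin receptors VLDLR (5.75 TPM) and LRP8 (14.7 TPM), while the reelin adaptor DAB1 was at 0 in all libraries.

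edgeR called 0 genes of any of these lists after siAURKA. In the lipid droplet list the median log2 fold change was -0.30, with 16 of 17 tested genes below 0, and in 3 of 3 pairs 8 genes were lower and 0 higher. Over all 18775 tested genes 9676 were below 0, and 17.6% were lower and 17.9% higher in 3 of 3 pairs. All exonic bases of CIDEB, a droplet protein, are shared with other genes (100%), so no value is read as its own. CIDEB is nevertheless counted among the 16 and the 8. The 8 also include PLIN1, which had 8 units in both replicate 2 libraries, under the floor of 12. HILPDA is another of the 8, at a log2 ratio of -0.0041 in pair 1. HILPDA, an inhibitor of lipolysis, was at 19.8 ± 2.73 CPM in siAURKA and 27.0 ± 10.4 CPM in siNC (SD, n = 3), a log2 fold change of -0.45, or of -0.12 when siNC replicate 2 is left out. PNPLA2, named after its value was seen, was the 1 gene of these lists that DESeq2 with the replicate block called (adjusted p 0.0435, a log2 fold change of -0.54), where that fit called 0.81% of all genes lower, and edgeR with the same block gave it an adjusted p of 0.552. It was at 77.4, 227.2 and 121.2 CPM in siAURKA and 103.8, 332.5 and 183.5 CPM in siNC, lower in 3 of 3 pairs with overlapping groups, and without siNC replicate 2 edgeR put it at -0.015. Without siAURKA replicate 1, 12 of the 17 were below 0 (median -0.15), and without siNC replicate 2, 13 were (median -0.11).

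In the quiescence factor list the median was -0.18, with 16 of 18 tested genes below 0, and 10 genes were lower and 0 higher in 3 of 3 pairs. Among all tested genes 17.6% were lower in 3 of 3 pairs and 17.9% higher. GATA4, a factor that in mouse holds stellate cells in the resting state, was at 48.8, 44.1 and 32.1 CPM in siAURKA and 57.6, 83.2 and 75.1 CPM in siNC, without overlap. Its log2 fold change was -0.79 (SE 0.31, adjusted p 0.9999 by edgeR, 0.0342 before adjustment), and DESeq2 with the replicate block gave an adjusted p of 0.0882. With 1 library left out the log2 fold change of GATA4 ran from -0.93 to -0.64. IRF1 had a log2 fold change of -0.60 and CEBPB, a fat-programme factor, -0.99 (0.32 without siNC replicate 2). Without siNC replicate 2, and with siAURKA replicate 2 kept, the list had 8 genes below 0 and a median of 0.040. By same-numbered pair the median log2 ratios were -0.11, -0.39 and -0.19 in pairs 1, 2 and 3. Pairs 1 and 3 do not use siNC replicate 2. The part of that library in the direction of the list was not tested.

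Of the remaining lists, the median log2 fold changes were -0.22 for the 12 tested retinoid genes, with RARA at -0.58 (0.19 without siNC replicate 2), -0.11 for the 15 other stellate genes, with CXCL12 at -0.45, and -0.051 for the 11 neural-type genes. The 15 activation genes had a median of -0.081. COL1A2 was at 1.06 (9.11 ± 2.56 CPM in siAURKA and 4.35 ± 1.29 CPM in siNC) and ACTA2 at 0.52, each higher in 3 of 3 pairs. Their groups did not overlap, as for 3.33% of all tested genes with siAURKA higher, and the adjusted p by edgeR was 0.9999 for each. With 1 library left out COL1A2 ran from 0.83 to 1.22 and ACTA2 from 0.41 to 0.75. In the other direction SPARC was at -0.68 (492.1 ± 161.1 CPM in siAURKA and 786.3 ± 422.9 CPM in siNC, lower in 2 of 3 pairs), and CCN2, a matrix-associated growth factor, at -0.61 and TIMP1 at -0.37 were each lower in 3 of 3 pairs. Without siNC replicate 2 CCN2 was at -0.13 and TIMP1 at 0.20. Without siNC replicate 2 the medians were 0.078 for the other stellate genes and 0.092 for the activation genes.

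Markers of other cell types that share genes with these lists were mostly low. Of 12 glial and neuronal markers 3 were detected in siNC, TUBB3 and SYT1 among them, and SOX10, AQP4 and S100B were each under 0.5 TPM there, beside the low GFAP. Their summed level was 59.6 to 77.2 CPM in siAURKA and 62.1 to 73.4 CPM in siNC. Of 8 fat cell markers LIPE alone was detected, and LEP was at 0 in all libraries. Of 12 hepatocyte markers 2 were detected, SERPINA1 (20.4 TPM) and ASGR1 (2.18 TPM), with ALB, APOB, TTR, AHSG and FGB at 0 in all libraries. Cholangiocyte, endothelial and leukocyte lists had 4 of 8, 4 of 10 and 4 of 10 detected. Among them were SOX9 (51.1 TPM), TIE1 (64.2 TPM), CD14 (37.2 TPM) and CD68 (90.7 TPM, with 85.8% of its exonic bases shared with other genes). By the same rule 62.5% of all protein-coding genes were detected. Fewer cells with a transcript and less of it per cell cannot be told apart in these bulk libraries.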

How the data were processed

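RNA was measured in 6 LX2 libraries, 3 per group, grouped and numbered by their labels. The submitters' processing notes name HISAT2 and GRCh38. How reads were counted, with which annotation and whether by strand, is not given in the sources used here. The deposited values are whole-number estimated counts per gene, not scaled, so rounding before the count tests altered nothing. GENCODE release 29 matched 57980 of 58243 identifiers (version dropped) and gave coordinates, exonic length and overlap. TPM values use these lengths.

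The filter of filterByExpr left 18775 genes. siAURKA was tested against siNC by quasi-likelihood in edgeR, scaled by TMM, at a Benjamini-Hochberg adjusted p of 0.05. Pair ratios use log2 CPM with a prior count of 2. Alternatives were RLE factors, no filter, DESeq2, limma-voom, a replicate block in edgeR and DESeq2, values divided by 4 and each library left out. The same-numbered partner of a left-out library stayed in the fit, which had no block. All fits were tested on simulated counts and recovered most changed genes. Those counts held no difference between replicate numbers, unlike these libraries, so the recovery does not carry over to fits without a block. In the simulation DESeq2, with or without the block, made more false calls than its threshold allows. limma-voom and edgeR without the block also exceeded the threshold by less, and edgeR with the block was close to it. Genes that DESeq2 alone calls are therefore uncertain. Same-numbered libraries correlated in their deviations from group means at 0.647, 0.477 and 0.302 (others -0.525 to 0.0396), so numbers were taken as pairs, from the data and not the labels. Markers, lists and tests were chosen with earlier results of these data known. Beside the 10 markers, named genes are AURKA, up to 3 per context list by smallest p-value with at least 1 CPM, the activation genes, the 2 most alike genes per marker, and relatives for level; others are named for their level in siNC. Software was DESeq2 1.42.0, edgeR 4.0.16 and limma 3.58.1 under R 4.3.3, and Python 3.11.15. Some list members are not reported here.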

Additional observations from a re-analysis of the deposited data

How the results depend on the processing

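Over all genes edgeR called 0 in each direction. DESeq2 called 9 higher and 8 lower, and DESeq2 with a replicate block 94 higher and 152 lower. With 1 library left out edgeR called 0 to 1 genes in each direction. No setting called a marker, and the replicate block changed no call among the markers. Of 114 fitted values of the 9 markers under the alternatives, 12 changed sign. RELN was at 0.11 by limma-voom. With 1 library left out the log2 fold change ran from -0.43 to 0.083 for LHX2, -1.15 to 1.01 for NGFR, -1.24 to 1.12 for RELN, -0.73 to 0.22 for PLIN2 and -0.30 to 2.40 for CYGB. Those of HAND2, GFAP, PPARG (0.51 to 2.65) and SPARCL1 (0.52 to 2.31) kept their sign, and SPARCL1 was at 0.034 by limma-voom. A left-out library kept its same-numbered partner in the fit without a block, so differences between replicate numbers enter these values. How far they account for the changes of sign was not tested. The count of detected markers was 4, with a range of 4 to 5 without 1 siNC library, 6 at a limit of 0.5 TPM and 4 at 2 TPM. PPARG, CYGB, SPARCL1 and LRAT were under 12 units in 2 or more libraries, so low counts limit what can be read from them. The part of library depth in these low counts was not tested.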
